A study of Mus musculus with 8 samples.

Results

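Inside 6 mouse genes, Tnrc6b, Inpp4b, Cdyl2, Amn1, Memo1 and Rtf1, a stretch of internal sequence was almost fully methylated in one lymphocyte type and almost unmethylated in the other, while the promoter of the same gene was low in both. In the picked stretch of Tnrc6b, Inpp4b, Cdyl2 and Amn1 the T cells were low, and in that of Memo1 and Rtf1 the B cells were low. From its first to its last switched CpG, the stretch was 30 bp wide in Amn1, 105 bp in Memo1 and 141 bp in Rtf1. It was 258 bp in Tnrc6b, 1170 bp in Cdyl2 and 3811 bp in Inpp4b. Counted out to the next measured CpGs, those of Amn1, Memo1, Rtf1 and Tnrc6b could reach 1285, 2659, 1577 and 1216 bp. The width was 839 bp in Inpp4b with a minimum of 10 reads per CpG, and 978 to 2877 bp in Cdyl2 over the settings tried. The promoters did not follow, with a B minus T difference between -5.66 and 1.49 percentage points.

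The 6 genes are 6 of the 21055 protein-coding genes whose promoter could be tested, and they were selected on measured values of these same files. Each holds a 1 kb window that ranked among the largest B and T differences of the genome. Their B minus T differences, as the mean of both sexes, were 97.6 points in Tnrc6b, 97.4 in Inpp4b, 95.3 in Cdyl2, 95.9 in Amn1, -95.7 in Memo1 and -93.5 in Rtf1. The B and T difference at these genes is therefore a description, and nothing is read from calls of that contrast at these genes. The genes were proposed as broadly expressed, which could not be checked because no expression values were used here.

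The assay was bisulfite sequencing of the whole genome, in which unmethylated cytosines are converted and methylated ones are read as unchanged, with 5-methylcytosine and 5-hydroxymethylcytosine read alike. The DNA came from spleens of C57BL/6J mice aged 6 to 8 weeks, an inbred laboratory strain carrying no transgene or treatment. The B cells were CD43- resting cells, and the T cells were naive CD4+ CD62L+ cells sorted as CD44 low and CD25-. The 8 samples formed 4 groups, B and T cells of either sex, cells of several animals were pooled, and each group had 1 file for its 2 samples. There are hence no replicates within a group, a B and T difference was seen once in each sex, and intervals cover counting error only. Autosomal CpG reads per file ranged from 278275973 to 339923001, with a mean depth of 14.6 to 17.7 reads per CpG. As a check of the labels, the promoters of the B cell genes Cd79a, Cd79b, Ms4a1 and Cd22 were all lower in B cells, and those of 5 T cell genes (Cd3d, Cd3e, Cd3g, Cd4 and Cd5) were all lower in T cells, each called by the quasi-binomial test described at the sex comparison. Of the markers of other spleen cells, the Cd8a promoter was also called, 20.9 points lower in T cells. Klrb1c, Csf1r, Itgam and Foxp3 were not called, with differences between -3.39 and 4.90 points.

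DNA methylation at CpG dinucleotides is stable through cell division, covers most of a mammalian gene body and is usually absent from CpG-rich promoters. Sequence inside genes that loses methylation in one lineage is known to overlap enhancers and alternative promoters. Tnrc6b encodes a scaffold protein of microRNA silencing that binds Argonaute proteins. Inpp4b encodes a phosphatase of phosphoinositide lipids that dampens AKT signalling. Cdyl2 encodes a chromodomain protein that binds methylated histone tails. Memo1 is named as a mediator of ErbB2-driven cell motility, and Rtf1 encodes a transcription elongation factor that acts with the PAF1 complex. Amn1 carries the name of a yeast antagonist of mitotic exit.

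The sequence that switched is given here for each gene, 5′ to 3′ on the strand of the gene, from the GRCm38 reference, with the CpGs measured in all 4 files in capitals. For Tnrc6b and Rtf1 this is the whole segment, which shows how few CpGs carry the difference. For Inpp4b and Cdyl2 it is a stretch of at most 300 bp inside the segment, chosen for its number of measured CpGs among stretches free of annotated UTR. The Amn1 stretch runs from just upstream of an annotated internal start to 20 bp beyond the segment. For Memo1 only 30 bp are shown, which are coding in transcript Memo1-210 and annotated as UTR in Memo1-203 and Memo1-206.
Tnrc6b chr15:80892473-80892730 (+ strand): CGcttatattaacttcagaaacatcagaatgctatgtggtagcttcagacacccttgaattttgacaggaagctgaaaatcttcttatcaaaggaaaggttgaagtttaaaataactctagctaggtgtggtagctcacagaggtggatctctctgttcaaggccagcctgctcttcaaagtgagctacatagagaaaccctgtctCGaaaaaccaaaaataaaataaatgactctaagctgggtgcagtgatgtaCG
Inpp4b chr8:81770240-81770539 (+ strand): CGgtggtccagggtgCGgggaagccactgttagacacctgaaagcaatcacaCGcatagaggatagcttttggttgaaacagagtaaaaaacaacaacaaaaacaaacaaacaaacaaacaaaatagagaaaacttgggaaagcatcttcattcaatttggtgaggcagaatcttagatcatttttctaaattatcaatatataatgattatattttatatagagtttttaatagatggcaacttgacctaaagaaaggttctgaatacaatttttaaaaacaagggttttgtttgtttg
Cdyl2 chr8:116590154-116590432 (- strand): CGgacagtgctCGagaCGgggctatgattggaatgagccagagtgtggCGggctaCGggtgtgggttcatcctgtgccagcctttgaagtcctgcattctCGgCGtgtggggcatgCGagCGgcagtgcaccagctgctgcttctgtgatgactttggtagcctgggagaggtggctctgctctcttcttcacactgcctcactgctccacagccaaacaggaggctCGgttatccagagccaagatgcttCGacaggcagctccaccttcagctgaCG
Amn1 chr6:149183493-149183648 (- strand): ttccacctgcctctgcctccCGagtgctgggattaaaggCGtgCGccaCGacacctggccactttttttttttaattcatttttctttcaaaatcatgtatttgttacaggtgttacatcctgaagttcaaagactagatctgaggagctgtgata
Memo1 chr17:74201197-74201226 (- strand): agttaCGcagctggagcactcaCGgtccac
Rtf1 chr2:119682848-119682988 (+ strand): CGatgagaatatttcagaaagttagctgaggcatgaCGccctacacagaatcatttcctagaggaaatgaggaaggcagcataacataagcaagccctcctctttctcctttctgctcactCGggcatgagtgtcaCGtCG

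A CpG was counted as switched where B minus T was 50 points or more in females and also in males, with the same sign. It was counted as almost fully switched at 80 points. A segment was a run of at least 3 switched CpGs with at most 1 unswitched CpG in a row and at most 1000 bp between neighbours. Its width ran from the first to the last switched CpG. The smallest switched difference was 50 points in Tnrc6b, Inpp4b, Cdyl2 and Memo1, 56.2 in Rtf1 and 87.0 in Amn1. The largest difference just outside the limit was 48.6 points in Tnrc6b, 49.8 in Inpp4b, 45.7 in Cdyl2, 37.5 in Amn1, 49.6 in Memo1 and 40.4 in Rtf1.

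In Tnrc6b the segment at chr15:80892473-80892730 lies in an intron, 181160 bp from the start of the gene, and holds 3 CpGs. It was 97.2% methylated in female B cells (36 CpG reads) and 98.1% in male B cells (52 CpG reads), against 0% in female T cells and 0% in male T cells (40 CpG reads each). The 95% Wilson interval was 85.8 to 99.5% in female B cells and 0 to 8.76% in each T cell file. A simpler upper limit, 3 over the number of reads, is 7.50% for 0 of 40 reads. Both limits count each CpG read as independent. All 3 CpGs were at 0% in both T cell files, and the lowest B cell value of a CpG was 90.0%. The next measured CpG lay 507 bp to the left at 85.7% or more in every file, and 455 bp to the right at 88.9% or more. No unmeasured CpG of the reference lay in between, so no CpG of intermediate level was present at either edge.

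In Amn1 the segment at chr6:149183599-149183628 holds 4 CpGs within 30 bp, 5084 bp from the start of the gene. The level was 96.7% in female B cells, 96.6% in male B cells, 0% in female T cells and 1.49% in male T cells, over 30, 59, 44 and 67 CpG reads. Neighbouring CpGs sit on the same DNA fragments, and the 44 female T cell reads are 11 reads at each of the 4 CpGs. The next measured CpGs lay 646 and 613 bp away and were at 81.8% or more in every file, with 1 unmeasured CpG on one side. The segment was 100% masked as repeat sequence in the reference, the only one of the segments fully masked, and the part of read placement in its values was not tested.

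In Memo1 the segment at chr17:74201157-74201261 spans the end of the coding sequence and the start of the 3′ UTR in the last exon, 94260 bp from the start of the gene. Here the B cells were low, at 4.35% (females) and 0% (males), and the T cells stood at 97.2% and 98.4%. The 5 CpGs carried 46, 65, 72 and 64 CpG reads in female B, male B, female T and male T cells. All 5 CpGs were at 0% in male B cells, and 3 of the 5 were at 0% in female B cells. The flanking CpGs were 1003 and 1555 bp away, at 80% or more in every file, and 3 CpGs on the left could not be measured. The low stretch in B cells thus had a width between 105 and 2659 bp.

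In Rtf1 the segment at chr2:119682848-119682988 lies in an intron 7780 bp from the start of the gene and holds 5 CpGs. The B cells were at 4.55% (females, 66 CpG reads) and 0% (males, 52), and the T cells at 96.4% (females, 55) and 95.2% (males, 83). No CpG exceeded 8.33% in B cells, and none was under 88.9% in T cells. The next CpG on the right, 303 bp away, was at 90.0% or more in every file. The next on the left, 1137 bp away with 1 unmeasured CpG in between, was at 100%. Single CpGs further out also differed. The one 1000 bp to the right of the segment's middle was at 16.7% (females) and 40% (males) in B cells. T cells were at 85.7% and 100% there. Another, to the left within 3 kb, went the other way, at 66.7% and 81.8% in B cells and 10% and 5.26% in T cells.

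In Cdyl2 the segment at chr8:116589959-116591128 lies in an intron 141863 bp from the start and holds 26 CpGs, of which 19 were almost fully switched. Its level was 96.3% in female B cells, 95.4% in male B cells, 7.06% in female T cells and 4.80% in male T cells, over 406 to 637 CpG reads. In T cells 18 of the 26 CpGs were at 0% in females and 20 in males, and the highest CpG was at 38.5% and 47.6%. The sides of this segment were not the outer edges of the low T cell sequence, which went on beyond a few higher CpGs. The CpG 274 bp to the left stood at 65% and 50% in female and male T cells, and the one 90 bp to the right at 35.7% and 77.8%. Pooled over the sexes, the nearest T cell CpG at 75% or more was 407 bp away on the left and 147 bp on the right. The next CpG beyond each of these belonged to a neighbouring segment low in T cells. On the left it was at 31.6% and 19.2% in female and male T cells, and on the right at 0% in both. With 2 unswitched CpGs allowed in a row, the segment was 2877 bp wide. At the picked segments of Tnrc6b, Amn1, Memo1 and Rtf1 the next measured CpGs lay 303 to 1555 bp away. Their sides were thus seen at a coarser spacing and are not compared with these.

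In Inpp4b the segment at chr8:81769722-81773532 holds 23 CpGs over 3811 bp, 427166 bp from the start of the gene. It was 95.9% methylated in female B cells and 93.4% in male B cells, against 3.42% in female T cells and 1.961% in male T cells, over 295 to 351 CpG reads. Of the 23 CpGs, 14 in female T cells and 20 in male T cells were at 0%, and no T cell CpG exceeded 16.0%. It contains an exon of the gene (chr8:81770808-81770924) and the annotated starts of transcripts Inpp4b-213 (position 81770733) and Inpp4b-208 (position 81773113).

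Where this segment ended, it was the B cells that changed. The next CpGs, 81 bp to the left and 102 bp to the right, were at 0% in both T cell files and at 30.8 to 47.1% in B cells. Pooled over the sexes, T cells first reached 75% at 4416 bp to the left and 2753 bp to the right. The T cell stretch of CpGs at 25% or less, chr8:81767191-81775149, was 7959 bp wide. It enclosed a pair of B cell stretches of the same kind, chr8:81767403-81768230 (828 bp) and chr8:81773713-81774028 (316 bp). The left one was at 8.82% and 5.45% in B cells of females and males, and the right one at 17.6% and 26.8%, over 5 CpGs of which 4 were low.

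**Figure D1:**
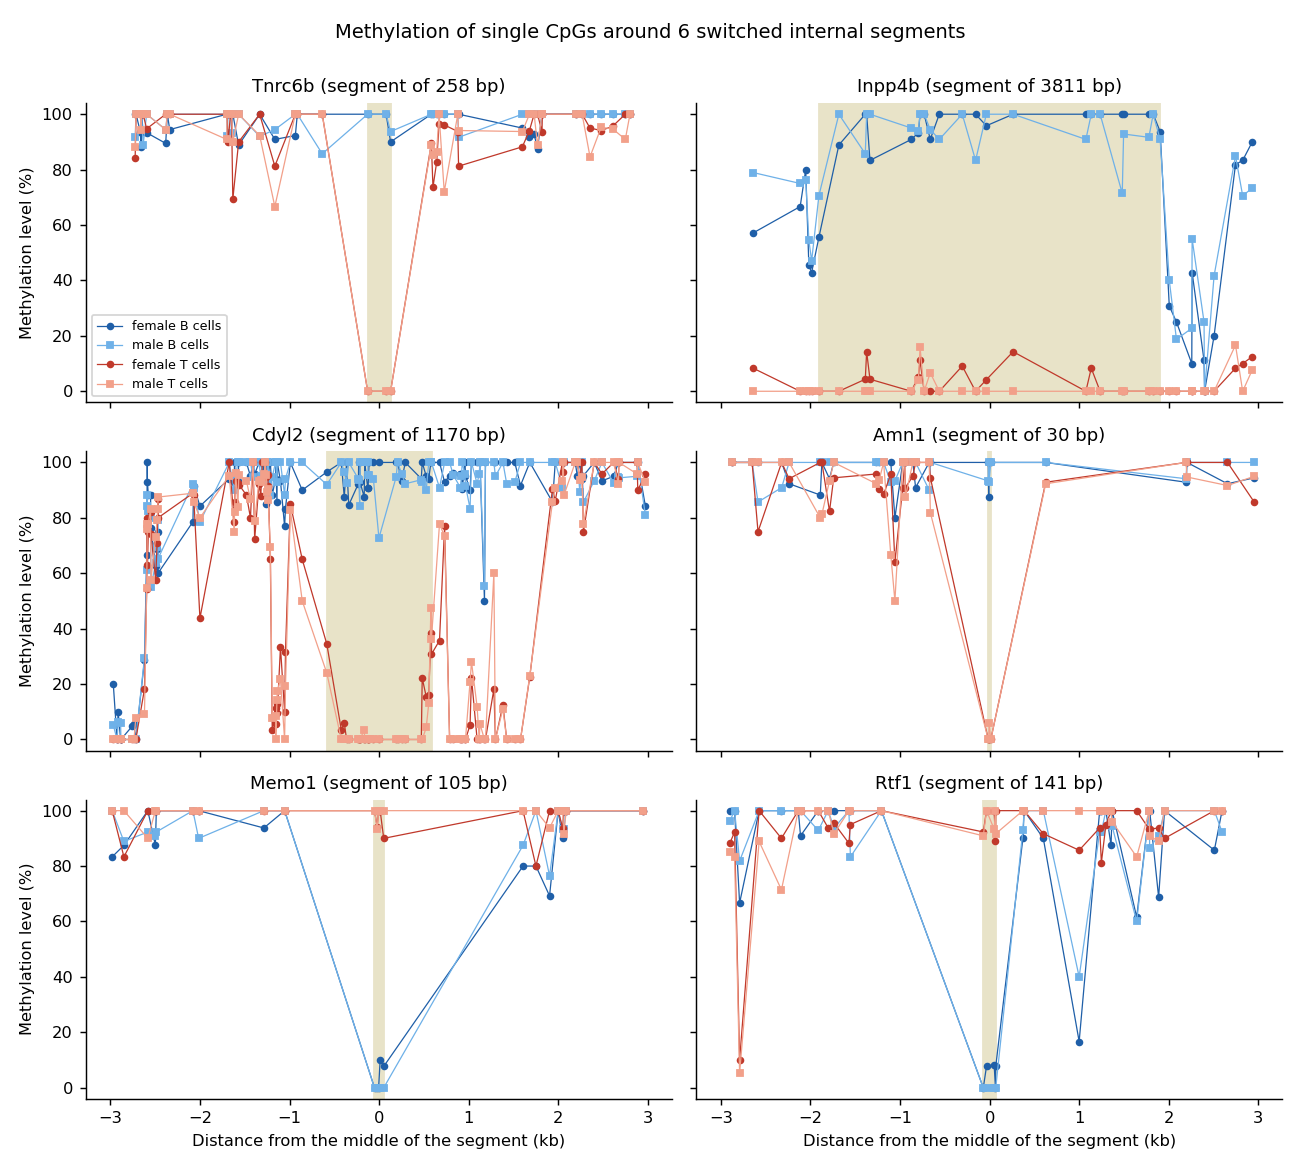
Methylation level (%) of every CpG measured in all 4 files within 3 kb of the middle of the picked segment, against distance in kb, in 6 panels, with 1 line per file and the segment shaded. The segments of Tnrc6b, Amn1, Memo1 and Rtf1 (30 to 258 bp) are dips of one cell type, and the next measured CpGs are highly methylated. Further out, the Rtf1 panel also holds single CpGs that differ between B and T cells, in either direction. In Cdyl2 and Inpp4b (1170 and 3811 bp) the T cell files stay low over many CpGs.

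The promoters of the genes, taken as the annotated start with 1 kb to either side, were compared in the same files. In the Tnrc6b promoter B cells were at 0.748% (females) and 1.18% (males) and T cells at 1.78% and 0.754%, over 2254 to 3030 CpG reads. In that of Inpp4b B cells were at 4.20% (females) and 2.93% (males) and T cells at 2.03% and 2.10%. The promoters of Cdyl2, Memo1 and Rtf1 were between 0.908 and 2.62% in every file. Amn1 had the highest promoter level, 16.5% and 18.1% in B cells of females and males and 21.0% and 24.8% in T cells. Within 500 bp of its start the Amn1 level was 3.56 to 5.86%, and its B minus T difference went from -5.66 to -0.943 points. The pooled B minus T interval of the promoter included 0 in Tnrc6b, Cdyl2, Memo1 and Rtf1, was 0.449 to 2.56 points in Inpp4b and -7.92 to -3.34 points in Amn1. None of the 6 promoters, from whose calls nothing is read, was among the 0.917% of all promoters called (193 of 21055). A promoter at 15% or less in all 4 files was common, at 47.3% of all promoters tested.

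The rest of each gene body, without promoter and segments, was methylated in every file, from 85.3% in male T cells at Tnrc6b to 97.1% in male B cells at Amn1. B minus T of these bodies was between 0.346 points in Rtf1 and 3.21 points in Tnrc6b, as the mean of both sexes. The low cell type at the picked segments (0 to 7.06%) was far under the rest of the same gene in every file. The high cell type (93.4 to 98.4%) was above it in every file but male B cells at Amn1. Both follow from choosing windows with an almost full B and T difference, so nothing is read from them.

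**Figure D2:**
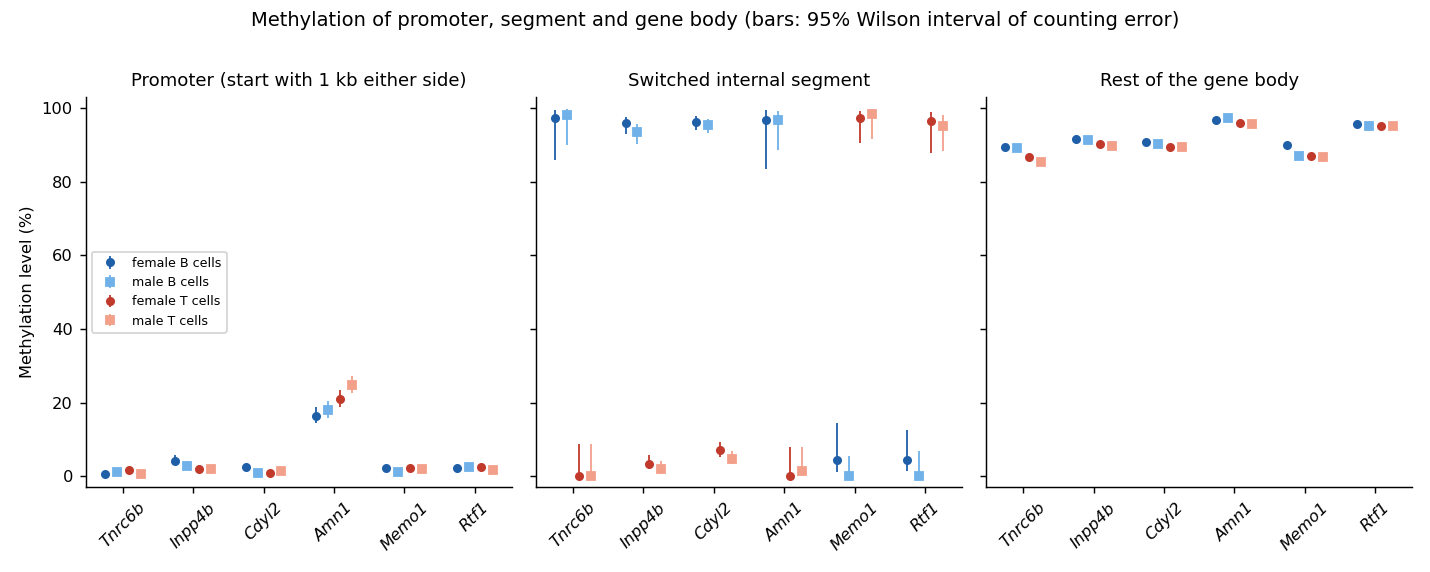
Methylation level (%) of the promoter, the picked segment and the rest of the gene body in each of the 4 files, with 95% Wilson intervals of counting error. All promoters lie under 25% and all remaining bodies over 85%, and only in the middle panel are B cell and T cell files at opposite ends, between 93.4 and 98.4% in one cell type and between 0 and 7.06% in the other.

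The width of the low sequence differed between promoter and segment. At the promoter, the run of CpGs at 25% or less (pooled over the sexes) was 1843 bp in B and 2047 bp in T cells at Tnrc6b, 1607 and 1838 bp at Inpp4b, and 1725 and 2280 bp at Rtf1. At Cdyl2 and Amn1 B and T cells shared the same run, of 1435 and 849 bp. At Memo1 it was 2491 bp in B and 2329 bp in T cells. Measured from the first to the last low CpG, the run at the segment was narrower than at the promoter in 5 genes, among them Amn1 with 30 against 849 bp. Counted out to the next measured CpGs, the segments of Amn1 and Memo1 could reach 1285 and 2659 bp, more than their promoter runs, so a narrower low stretch is not shown for these. It was 258 bp in Tnrc6b, 978 bp in Cdyl2, 105 bp in Memo1 and 141 bp in Rtf1. Inpp4b was the exception, with 7959 bp in T cells at the segment. Both Inpp4b and Cdyl2 turned round with a minimum of 10 reads per CpG. Inpp4b then had 839 bp at the segment and 1838 bp at the promoter in T cells, and Cdyl2 had 978 and 960 bp. The other cell type had no low run at any of these segments.

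The sequence of segments and promoters was compared as a description. CpG density was 4.08 to 12.2 CpGs per 100 bp in the promoter low runs. It was 0.68 in the Inpp4b segment, 1.16 in that of Tnrc6b, 2.22 in Cdyl2, 3.55 in Rtf1, 4.76 in Memo1 and 13.3 in the 4 CpGs of Amn1. The observed over expected CpG ratio over all 34 segments of the 6 genes had a median of 0.368, and at the promoter low runs it was between 0.492 and 0.977. Of the picked segments, Inpp4b (0.175), Tnrc6b (0.287) and Cdyl2 (0.371) were under that range, Memo1 (0.568) and Rtf1 (0.629) within it and Amn1 (1.43) above it. A segment starts and ends on a CpG, which raises both density and ratio in short segments such as those of Amn1, Memo1 and Rtf1. Their values are thus not comparable with the longer promoter runs. Counted out to the next measured CpGs, the Amn1 stretch is 1285 bp. Repeat sequence covered 100% of the Amn1 segment, 32.9% of that in Tnrc6b, 19.1% in Rtf1, 18.4% in Inpp4b, 13.2% in Cdyl2 and 0% in Memo1.

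The picked segment was not the only switched sequence in these genes. Over the gene bodies with 10 kb to either side, 346 of 9751 CpGs (3.55%) were switched and 149 were almost fully switched, against 0.756% and 0.182% of all autosomal CpGs. Since the genes were chosen for such a window, nothing is read from this difference. The runs formed 34 segments, 27 of them low in T cells and 7 low in B cells, and 110 switched CpGs lay outside any segment. All 34 had the same sign in both sexes by construction, with 33 inside a gene body and 26 wholly in introns. Widths ran from 30 to 3811 bp with a median of 310 bp, and all 7 segments over 1 kb were low in T cells. Segments low in B cells were 39 to 642 bp wide.

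Segments of opposite direction occurred within one gene in Tnrc6b, Inpp4b and Cdyl2. Inpp4b had 15 segments low in T cells and 1 low in B cells, the latter at chr8:81353507-81353863, 10951 bp from the start. That stretch of 357 bp was at 9.90% (females) and 9.46% (males) in B cells, and T cells were at 90.8% and 93.8%. Tnrc6b had 5 low in T and 1 low in B cells, and Cdyl2 had 6 and 1. Memo1 and Rtf1 had 2 segments each, all low in B cells, and Amn1 had 1.

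**Figure D3:**
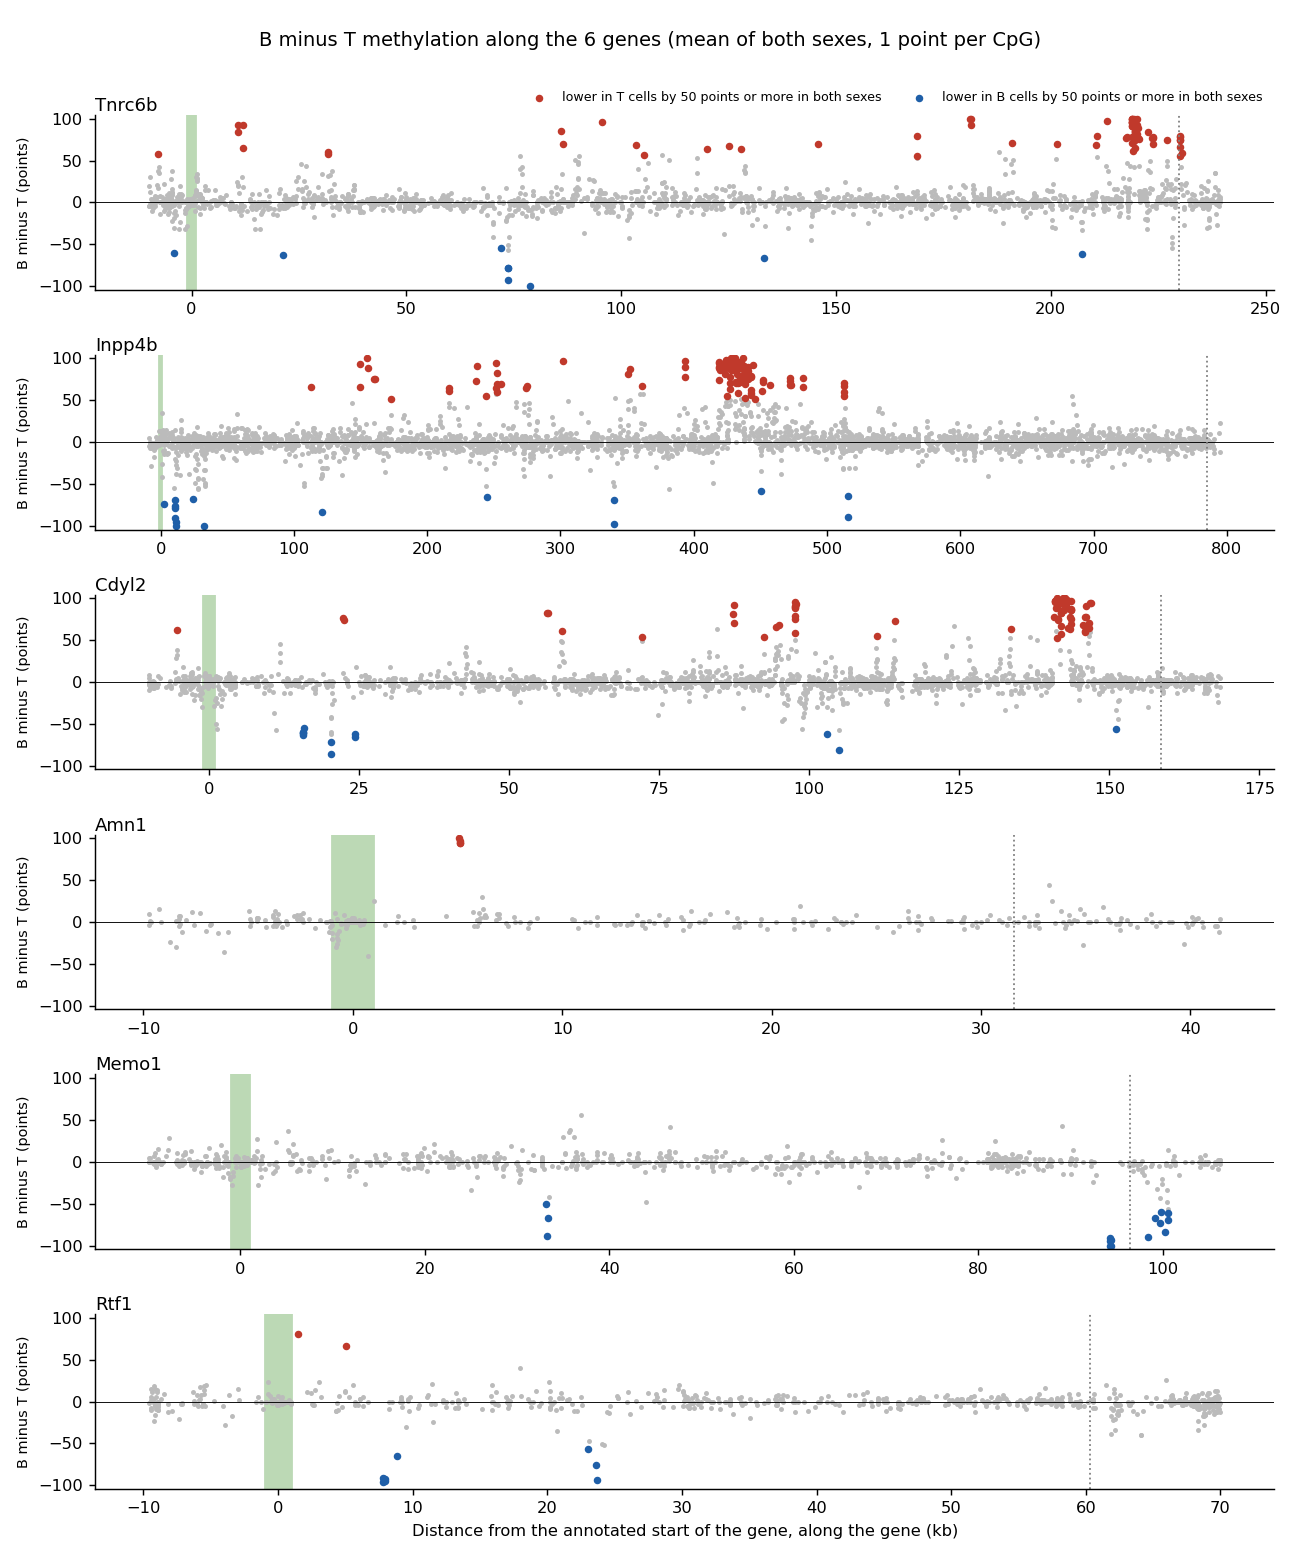
B minus T methylation in points (mean of both sexes) at each measured CpG along the 6 genes, against distance in kb from the annotated start, with the promoter shaded green, the end of the gene as a dotted line and switched CpGs in color (red, lower in T cells; blue, lower in B cells). Most CpGs lie near 0, no switched CpG lies in a shaded promoter, and the colored points gather near 430 kb in Inpp4b, near 142 kb in Cdyl2 and near 219 kb in Tnrc6b.

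In Inpp4b 11 of the segments lay within 24.4 kb (chr8:81761434-81785831), all low in T cells, and covered 46.7% of that span. Of 144 CpGs there, 78 were switched. Over the whole span B cells were at 78.6% (females) and 77.0% (males), and T cells at 21.7% and 22.8%. The gene has 1 annotated internal start in this span that was low in every file, that of Inpp4b-204 (position 81767801), where CpGs within 500 bp were at 8.82% and 5.45% in B cells of females and males and at 3.16% and 2.02% in T cells. The starts of Inpp4b-213 and Inpp4b-208, inside the widest segment, were at 95.7% and 99.1% in female B and at 4.94% and 0.935% in female T cells, and the male files gave 95.9% and 92.8% against 4.44% and 0%.

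**Figure D4:**
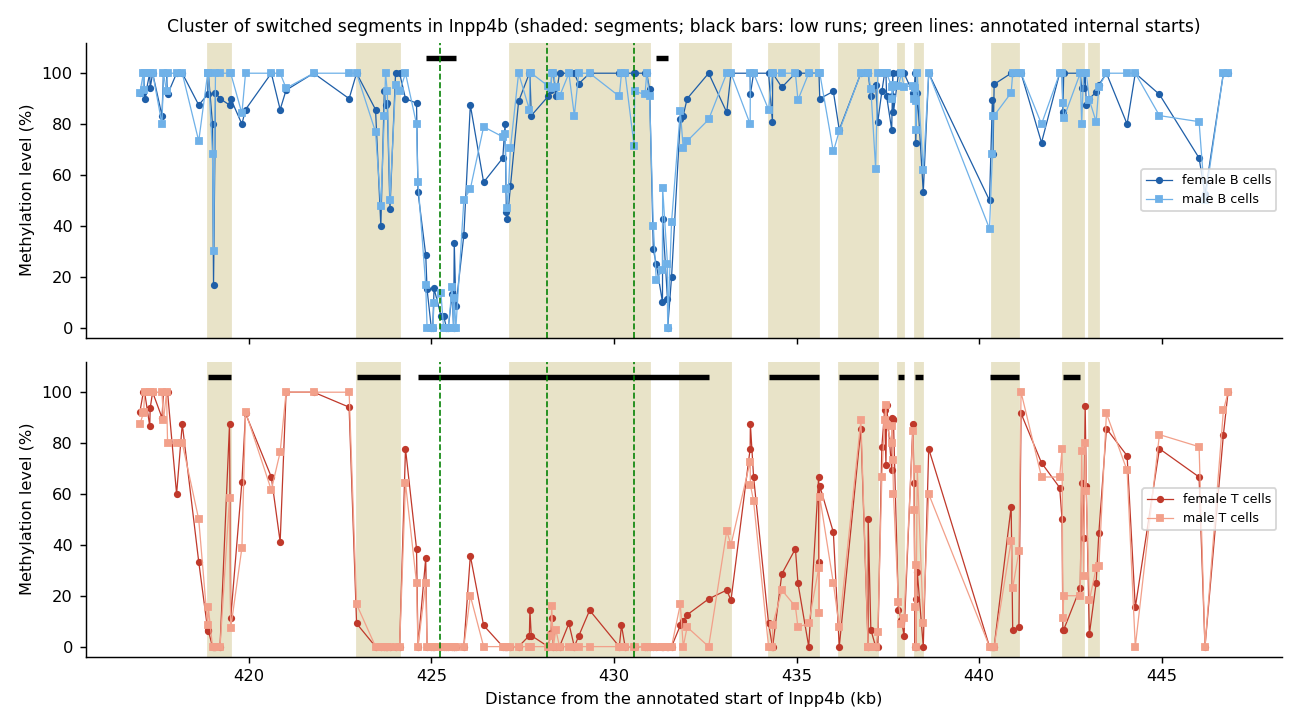
Methylation level (%) of each CpG in B cells (top) and T cells (bottom) around the widest Inpp4b segment, against distance in kb from the annotated start, with switched segments shaded, runs of CpGs at 25% or less as black bars and annotated internal starts as green lines. Among the low runs of T cells, the one of 7959 bp crosses all 3 internal starts, and B cells have a pair of short ones of 828 and 316 bp, the first of which holds the start of Inpp4b-204.

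In Cdyl2 the main segment was 1 of 4 within 5372 bp, all low in T cells. Its neighbour upstream, chr8:116591330-116592226 (897 bp, 20 switched CpGs), was at 95.5% (females) and 93.9% (males) in B cells, with T cells at 3.80% and 8.51%. The neighbour downstream, chr8:116589350-116589499 (150 bp, 8 CpGs), reached into a coding exon and was at 90.7% and 96.1% in B against 13.5% and 11.1% in T cells. Cdyl2 has 1 annotated start, and the nearest annotated start to these segments belongs to Dynlrb2, 84944 bp from the main one.

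In Tnrc6b the segment with most switched CpGs was not the picked window. It lay in the 3′ UTR (chr15:80929474-80941085), at chr15:80930686-80931782, with 15 switched CpGs over 1097 bp. Of the 30 CpGs of the reference in this stretch, 14 were not measured in all 4 files. Levels were 90.8% in female B, 91.0% in male B, 10.0% in female T and 14.8% in male T cells, over 177 to 239 CpG reads. A segment of 460 bp with 13 CpGs lay 123 bp before it, at 94.3% and 94.6% in B and 4.00% and 3.29% in T cells. The internal start of Tnrc6b-204 (position 80798642) was at 0.645% or less in every file, 13726 bp from the nearest segment, and the 6 internal starts of Tnrc6b other than Tnrc6b-204 and Tnrc6b-203 were at 87.2% or more. The start of Tnrc6b-203 was intermediate, at 69.6% and 66.2% in B cells of females and males and at 46.4% and 47.6% in T cells.

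Apart from Inpp4b, only Amn1 had an annotated start within 500 bp of a switched segment. Its segment lay 107 bp upstream of the start of Amn1-204 (position 149183492), an internal start of the gene. Over all 34 segments the median distance to the nearest annotated start of any gene was 7248.5 bp, and in 13 it exceeded 10 kb. For Memo1 that start, at 10658 bp, belonged to CT010445.1, and for Rtf1, at 7776 bp, to the gene itself.

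Short motifs of lymphocyte transcription factors were searched on both strands in the 1 kb centred on the main segment of each gene, as a description. The RUNX letters TGTGGTT were in 3 of 6 (Tnrc6b, Amn1 and Memo1), against 21.6% of all 2018320 windows tested. The letters of the E box, CAGGTG, and of GATA factors, AGATAA, were in 2 of 6 each, and are in 48.0% and 48.4% of windows. TCF7/LEF1 (CTTTGAT), AP-1 (TGANTCA) and KLF (CCACCC) letters were each in 1 of 6, and are in 18.2%, 26.6% and 44.5% of windows. ETS (ACCGGAAGT), its core CCGGAA, PU.1 (GAGGAAGT), octamer (ATGCAAAT) and EBF1 letters were in 0 of 6, and are in 0.210%, 8.52%, 6.01%, 7.88% and 1.86% of windows. The core and PU.1 letters overlap those of ETS. The Tnrc6b match to RUNX was at its 3′ UTR segment. At the picked Tnrc6b segment there was no RUNX match, a TCF7/LEF1 match lay inside the segment, and a pair of AP-1 matches and 1 octamer match lay beside it in the same 1 kb.

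The sexes were compared over the same segments. Since the genes were chosen for a large difference averaged over both sexes, and segments had to switch in each, a small sex difference was favored by the choice, and nothing is read from it. Reads of each 1 kb window were fitted by a quasi-binomial model with cell type and sex, tested by an F test across all windows, and called at a Benjamini-Hochberg adjusted p under 0.05 and 20 points. On the autosomes 20 of 1950708 windows (0.00103%) were called between females and males. None of the 45 windows holding part of a segment was called, with 2 at an unadjusted p under 0.05 and a lowest adjusted p of 1. Female minus male in these windows was between -6.76 and 7.26 points, with a median size of 2.13 points. Within a single cell type, the segments differed between the sexes by at most 12 points among B cells, in a Cdyl2 segment low in B cells, and by at most 15.8 among T cells, in an Inpp4b segment. Over all windows 2.08% (41929 of 2018320) were called for cell type, and in the 6 gene regions 90 of 1196 (7.53%) were, from which nothing is read since the genes were chosen on that contrast.

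Genes that act with Tnrc6b, Inpp4b, Cdyl2 or Rtf1, or are paralogs of them, were listed by their known function. Of 17 such genes, 0 had a called promoter, against 0.917% of all promoters, and the promoter differences lay between -2.91 and 1.85 points. In their regions 74 of 1404 windows (5.27%) were called, against 2.08% of all windows. These were spread unevenly, with 15 in Inpp5d, 12 in Ago2 and 11 in Tnrc6c but 0 in, for example, Ctr9 and Wdr61. Windows of one gene are neighbours, and the genes were listed with earlier results of these data known. No excess is therefore read from this share. Switched segments were found in 8 of the 17, with 9 low in T and 13 low in B cells. Of all autosomal protein-coding genes, of any length, 29.5% held such a run, counted in the same way with 10 kb to either side. A longer gene offers more sequence for a run. The 17 genes, with a median length of 68664 bp, were not matched for length, so no excess is read from this. The 8 genes with segments included the Tnrc6b paralog Tnrc6c (2 segments), the Argonautes Ago2 (4) and Ago4 (2), the lipid phosphatases Inpp4a (2) and Inpp5d (5), the Cdyl2 paralog Cdyl (4) and the histone methyltransferase gene Ehmt2 (1). Ago2 had all 4 low in T cells, and Inpp5d, a phosphatase known to restrain B cell receptor signalling, had all 5 low in B cells, the widest of 648 bp. None of the 5 genes of the PAF1 complex (Paf1, Leo1, Cdc73, Ctr9 and Wdr61) had a segment. The widest segment of any of these genes, 678 bp in Cdyl, was narrower than those of Inpp4b and Cdyl2. Inpp4b and Cdyl2 were chosen for a window with a large B and T difference, so nothing is read from this.

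Against all runs of the genome, the segments of Inpp4b and Cdyl2 were wide and that of Amn1 was narrow. Those of Tnrc6b, Rtf1 and Memo1 lay between the quartiles. The genes were chosen for windows with a large B and T difference, so nothing is read from these ranks or from the runs per gene. Widths run from the first to the last switched CpG, and the Amn1 stretch could reach 1285 bp. The autosomes held 15519 runs defined in the same way, 58.5% of them low in T cells, with a median width of 184 bp, quartiles of 102 and 331 bp and a median of 4 switched CpGs. Of these runs, 9 were wider than the Inpp4b segment and 274 wider than that of Cdyl2. Both widths depended on the settings, with 839 bp for Inpp4b at a minimum of 10 reads and up to 2877 bp for Cdyl2 with 2 unswitched CpGs allowed. The Tnrc6b intronic segment was wider than 65.4% of runs, those of Rtf1 and Memo1 wider than 37.5% and 25.6%, and that of Amn1 wider than 3.04%. Only 27 protein-coding genes had more runs than Inpp4b, which is also a long gene of 785359 bp, so that more sequence was searched. Amn1, at 31566 bp, had 1.

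**Figure D5:**
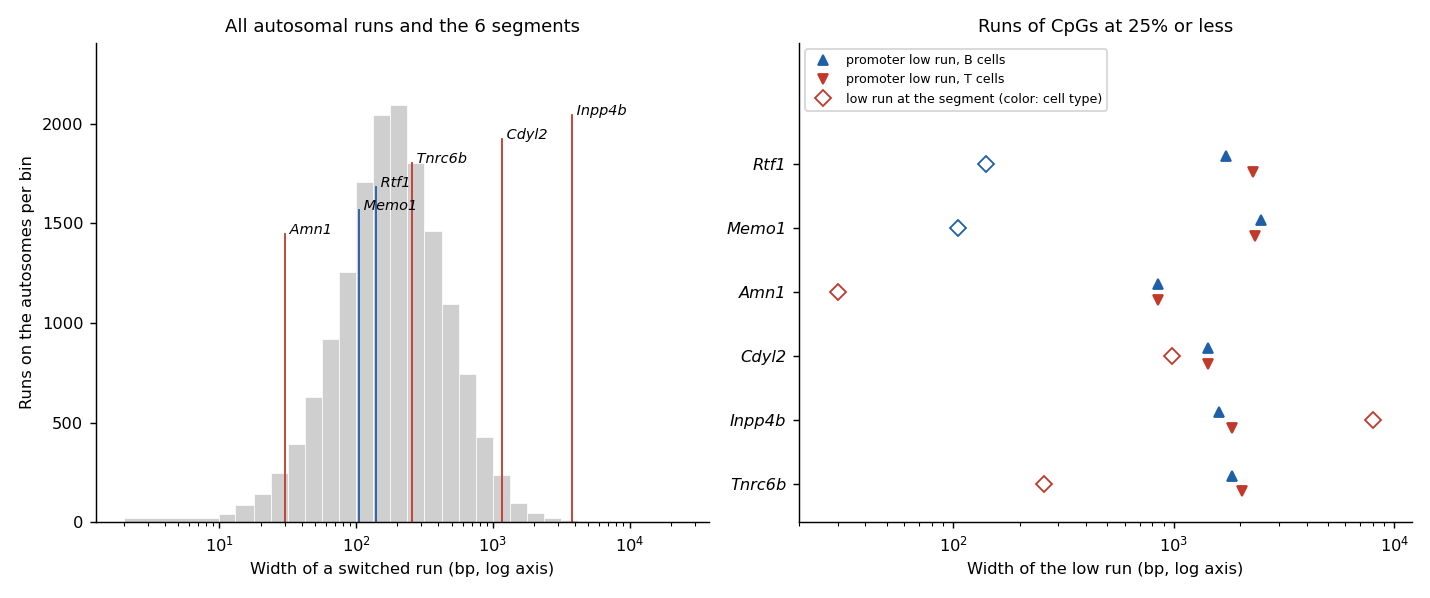
Left, number of switched runs on the autosomes per bin of width (bp, log axis), with the 6 picked segments as lines (red, low in T cells; blue, low in B cells). Right, width (bp, log axis) of the run of CpGs at 25% or less at the promoter in B cells and T cells (triangles) and at the segment (open diamonds). With 5 or more reads per CpG, Inpp4b has its wider run at the segment and the other 5 genes at the promoter. Both Inpp4b and Cdyl2 turn round with 10 or more. Counted out to the next measured CpGs, the segments of Amn1 and Memo1 could reach 1285 and 2659 bp, so the order is not shown for these.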

How the data were processed

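Whole-genome bisulfite data of 8 samples in 4 groups were used as 4 deposited tables, 1 per group. The labels do not state whether a table merges its 2 samples, and each was treated as 1 measurement. Per the submitters' processing notes, Trim Galore, FastQC and Bismark 0.13.1 were used with the mm10 build, and part of each sample was oxidized in the protocol, while the tables are named as bisulfite libraries. The tables deposited by the authors give, per CpG with 5 or more reads, the methylated fraction (3 decimals) and, as a read count, the coverage. Positions matched the CpGs of GRCm38 when counted from 0 and were changed to count from 1.

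Methylated reads were the fraction times the coverage, rounded, and no deposited fraction was more than 0.000997 from whole reads over coverage. CpGs with 5 or more reads in all 4 tables were kept (18216084 on the autosomes), with no upper limit on reads. PCR duplicates and conversion rate are not given in the sources used here. Genes were those of GENCODE M21, with 10 kb to either side. The genes, their partner genes, markers and motifs were chosen with earlier results of these data known. All 6 genes were described. Partner genes were named where a promoter was called or a segment found (some genes of the lists are not reported here), as were genes at or nearest to a main segment, which is the segment with most switched CpGs over 1 kb from the start of the gene. Levels are methylated over all CpG reads of a region with 95% Wilson intervals, and differences have Newcombe intervals.

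Windows of 1 kb with 3 or more CpGs entered a quasi-binomial logistic model (cell type and sex, 1 residual degree of freedom), the dispersion was moderated with limma 3.58.1 in R 4.3.3 over windows with at least 5 expected reads of each kind, and terms were tested by F tests. This procedure was tested on simulated windows that all had the same dispersion. The simulation therefore cannot show how the calls behave where dispersion varies, and the promoter fit was not simulated. For windows the prior had infinite degrees of freedom, so p-values rest on a single dispersion of 1.31 for all windows, while for promoters the prior had 8.89. Alternatives changed the coverage minimum, the thresholds, the window size, the test and the tables used.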

Additional observations from a re-analysis of the deposited data

Results flagged for a closer look

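At 3 promoters B minus T had opposite signs in females and in males. At the Tnrc6b promoter it was -1.03 points in females (95% Newcombe interval -1.64 to -0.425) and 0.431 points in males (-0.152 to 1.03). At the Cdyl2 promoter it was 1.503 points in females (0.686 to 2.46) and -0.581 points in males (-1.22 to 0.0784). At the Rtf1 promoter the values were -0.171 for females and 0.794 for males, with intervals that include 0 in both. The difference between the sexes was not tested. All of these levels lie under 3%, and each rests on 1 file per group.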

How the results depend on the processing

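With a minimum of 10 reads the Tnrc6b intronic segment and those of Amn1 and Memo1 could not be formed, since fewer than 3 of their CpGs were left, and the Inpp4b segment broke into stretches, the one with most switched CpGs 839 bp wide, as gaps over 1000 bp opened between the CpGs kept. The median width of the main segments went from 619 bp to 1221 bp over the 4 genes left, and the median low run at the segment from 559.5 bp to 908.5 bp. Amn1 and Memo1, with the narrowest segments, are missing from the later medians, so these are not changes within the same genes. The Cdyl2 segment was 2268 bp in the female and 1779 bp in the male files alone, and 2877 bp with 2 unswitched CpGs allowed. The Tnrc6b 3′ UTR segment was 2054 bp at 30 points and 1679 bp with 2 unswitched CpGs allowed. The Amn1 and Memo1 widths stayed at 30 and 105 bp in the alternatives that gave one, and that of Rtf1 was 123 to 141 bp. Of the promoter differences recomputed, 19 stayed within the counting interval of the main value and 5 did not, at Tnrc6b, Cdyl2 and Amn1. Windows called for cell type numbered 84621 at 10 points, 20613 by limma on log2 ratios (pseudocount 1) and 73162 in 500 bp windows. Windows called for sex numbered 221 at 10 points, 0 by limma (101039 at an unadjusted p under 0.05, against 92261 in the quasi-binomial model), 8 with 10 reads and 37 in 500 bp windows. No paired analysis was possible because each group has 1 file and the groups share no replicate numbers. Depth was also a limit at narrow segments, with 7 to 17 reads at each Amn1 CpG. Neighbouring CpGs share fragments, so intervals over CpG reads are too narrow.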

Other observations

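Low runs shared by both cell types also lay away from the promoters of these genes. In Cdyl2 an intronic run at chr8:116599715-116600051 (337 bp in B cells) was at 3.54% and 5.31% in B cells of females and males and at 2.17% and 2.59% in T cells. In Tnrc6b an intronic run at chr15:80743332-80743911 (580 bp in B cells) was at 11.3% in both B cell files and at 0.667% and 0% in female and male T cells. Downstream of Rtf1 a run at chr2:119740685-119743386 over the start of Itpka, which encodes an inositol trisphosphate kinase, was 2702 bp wide in both cell types, at 1.24% or less in every file.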
